A study of Mus musculus with 10 samples.

Results

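The mitochondrial ribosomal protein genes are the rows of the count table whose symbol starts with Mrpl (large subunit of the mitochondrial ribosome) or Mrps (small subunit) followed by a number. There were 77 of them among 20692 gene rows, 48 with a large-subunit and 29 with a small-subunit symbol. The study sequenced polyadenylated RNA from the hearts of 9-week-old wild-type FVB/NJ mice, an inbred strain, all labelled female. Of the 10 libraries, 5 are sham-operated controls and 5 were taken 1 week after transverse aortic constriction (TAC), an operation in which the arch of the aorta is tied to a narrower width so that the left ventricle pumps against more pressure. The sham libraries do not carry that word in their titles, and their group comes from the design text of the series. No transgene, drug or other allele is given for either group. The tissue is labelled whole heart, while the protocol describes the frozen ventricular apex. Replicates are taken as separate animals because the design counts mice, although no animal identifiers are given; if they were not, the p-values would measure only the spread between these libraries.

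Mitochondria carry their own small genome, which encodes a few subunits of the respiratory chain, and they translate those messages on a ribosome of their own. Its ribosomal RNAs come from the mitochondrial genome, but every one of its proteins is encoded in the nucleus, made in the cytosol and imported. Many of the proteins have bacterial counterparts and keep the bacterial numbers, and others were added in the course of mitochondrial evolution and carry mostly higher numbers. In the heart, where most energy comes from oxidative phosphorylation, loss of single mitochondrial ribosomal proteins is known to cause cardiomyopathy.

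Each library held between 7410967 and 10126574 counts. Of the members, 76 passed the filter on low counts, as did 12001 genes in all. Counts of the tested members in a library ran from 14 to 2120, and 68 of them had at least 100 counts in every library. Nppa, the atrial natriuretic peptide gene that is known to rise in loaded ventricles, had 820 to 1814 counts in sham and 4721 to 10718 in TAC. One library, labelled TAC replicate 1, goes against its label of sex: Xist, the RNA of the inactive X chromosome, had 14 counts there and 1042 to 1561 in the others, and the Y-linked Ddx3y had 155 counts there and 0 in the others. Levels below are CPM, read counts divided by TMM-scaled library sizes so that libraries of unequal depth can be compared. Fold changes are log2 ratios of TAC over sham ± standard error. That error was computed as the absolute fold change over the square root of the statistic of the edgeR quasi-likelihood F test. Adjusted p-values are those of the same test, adjusted by Benjamini and Hochberg's method over all tested genes. A member is called lower or higher where that adjusted p was under 0.05.

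The promoters of the 6 members with the lowest fold changes among those with a RefSeq entry are shown first, because these genes lie on several chromosomes and their messages were lower together. Each line gives the 100 bases directly before the RefSeq start of the gene (build GRCm38.p6), read 5′ to 3′ on the strand of the gene, with capitals for any match to 1 of 7 motifs searched on both strands. The windows are those of Mrpl39 (chr16:84735245-84735344, minus strand), Mrpl22 (chr11:58171564-58171663, plus strand), Mrpl14 (chr17:45686249-45686348, plus strand), Mrps31 (chr8:22411240-22411339, plus strand), Mrps25 (chr6:92184024-92184123, minus strand) and Mrpl45 (chr11:97315616-97315715, plus strand).
Mrpl39: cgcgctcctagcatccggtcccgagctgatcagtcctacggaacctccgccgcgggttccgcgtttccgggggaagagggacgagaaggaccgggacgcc
Mrpl22: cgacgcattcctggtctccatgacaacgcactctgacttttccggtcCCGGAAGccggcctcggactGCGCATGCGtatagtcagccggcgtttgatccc
Mrpl14: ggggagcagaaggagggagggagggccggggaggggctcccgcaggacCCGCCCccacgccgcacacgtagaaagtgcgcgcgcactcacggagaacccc
Mrps31: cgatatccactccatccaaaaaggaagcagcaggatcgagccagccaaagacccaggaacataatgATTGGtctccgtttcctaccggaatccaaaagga
Mrps25: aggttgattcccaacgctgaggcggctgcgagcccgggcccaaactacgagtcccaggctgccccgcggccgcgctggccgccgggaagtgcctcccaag
Mrpl45: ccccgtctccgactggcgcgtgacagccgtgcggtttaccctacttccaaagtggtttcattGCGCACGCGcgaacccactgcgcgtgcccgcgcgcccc

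No motif was common to all of these windows. Mrpl22 held the core of the ETS family (CCGGAAG) and the motif of NRF1 (GCGCANGCG), a factor known for binding promoters of nuclear genes for mitochondrial proteins, and Mrpl45 held the NRF1 motif alone. Mrpl14 held the core of Sp1 (GGGCGG) and Mrps31 a CCAAT box, both on the other strand. The windows of Mrpl39 and Mrps25 held none of the 7 motifs. Over the RefSeq promoter windows of 250 bases before to 50 after the start, found for 66 of the 76 tested members, the ETS core lay in 33.3% of members and in 18.2% of 9434 tested genes. The NRF1 motif lay in 22.7% of members and 14.1% of tested genes, and that of YY1 (AAGATGGCG) in 12.1% and 3.32%. The Sp1 core lay in 33 of the 66 members and 65.8% of tested genes, CCAAT in 39.4% and 38.2%, TATAAA in 6.06% and 6.78%, and the ERR motif (TCAAGGTCA) in none of the members and 0.297% of tested genes. Matches of different motifs may share bases and were counted for each motif. Among the 46 members called lower that had a window, 13 held the ETS core, 12 the NRF1 motif and 8 the YY1 motif, and among the 20 members not called, 9, 3 and 0 did. The Sp1 core lay in 24 of the members called lower and 9 of those not called, CCAAT in 21 and 5, and TATAAA in 4 and 0. Whether these shares differ was not tested. A match describes letters in a window and was not tied to binding in these hearts.

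Messages for the mitochondrial ribosome were lower in TAC hearts across both subunits, by small amounts. Of the 76 tested members, 51 fell, none rose and 25 did not pass the test. Those 25 had log2 fold changes between -0.39 and 0.05, and missing the threshold does not show that they did not differ. The share called lower was 67.1%, where 17.0% of all tested genes were called lower and 18.8% higher. The median log2 fold change was -0.28 over the members and 0.00 over all tested genes, and members lay between -0.56 and 0.05. The fitted value was below 0 in 72 members (49.6% of all tested genes), and the other 4, Mrpl33, Mrpl52, Mrpl54 and Mrps10, had values between 0.03 and 0.05 without passing the test. In 44 members every TAC library lay below every sham library, against 11.6% of all tested genes, and in none did every TAC library lie above (12.2% of all tested genes). The groups overlapped in 7 members that passed the test: Mrpl15, Mrpl35, Mrpl41, Mrpl43, Mrpl48, Mrps11 and Mrps31.

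**Figure D1:**
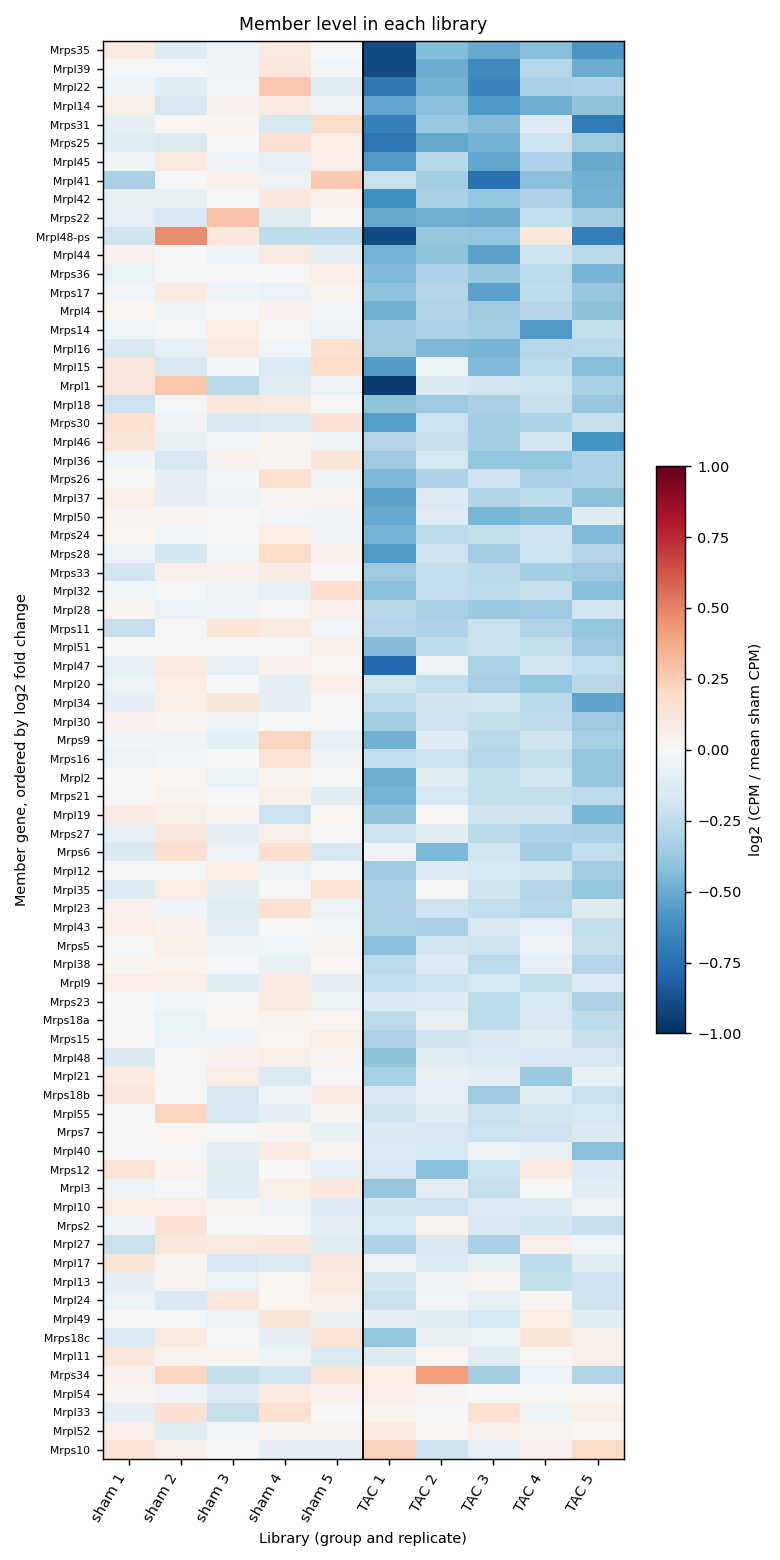
Level of each of the 76 tested members (rows, ordered by log2 fold change) in each of the 10 libraries (columns), as log2 of CPM over the mean of the 5 sham libraries; blue is below that mean and red above. Between 65 and 72 members lay below the sham mean in each TAC library, against 30 to 48 in each sham library.

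The sum over all members gives the same picture within single libraries. It was 3784, 3782, 3756, 3863 and 3825 CPM in sham replicates 1 to 5, and 2969, 3310, 3156, 3273 and 3092 CPM in TAC replicates 1 to 5. The groups did not overlap, and the TAC libraries were more spread out (3160 ± 138 CPM, SD, n = 5) than the sham libraries (3802 ± 42.1 CPM, n = 5). The mean sum was 16.9% lower in TAC, and it was 16.9% lower for each subunit taken alone. Large-subunit members summed to 2556 ± 26.3 CPM in sham hearts against 2124 ± 95.6 CPM after TAC, and small-subunit members to 1246 ± 24.2 against 1036 ± 43.9 CPM. The ratio of the large-subunit to the small-subunit sum, with subunits taken by symbol, lay between 1.997 and 2.092 in sham. In TAC this ratio lay between 2.021 and 2.078, so that the groups overlapped. As a share of all counts, with no TMM scaling, the members took 0.357% to 0.380% in sham and 0.316% to 0.333% in TAC, which did not overlap either.

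**Figure D2:**
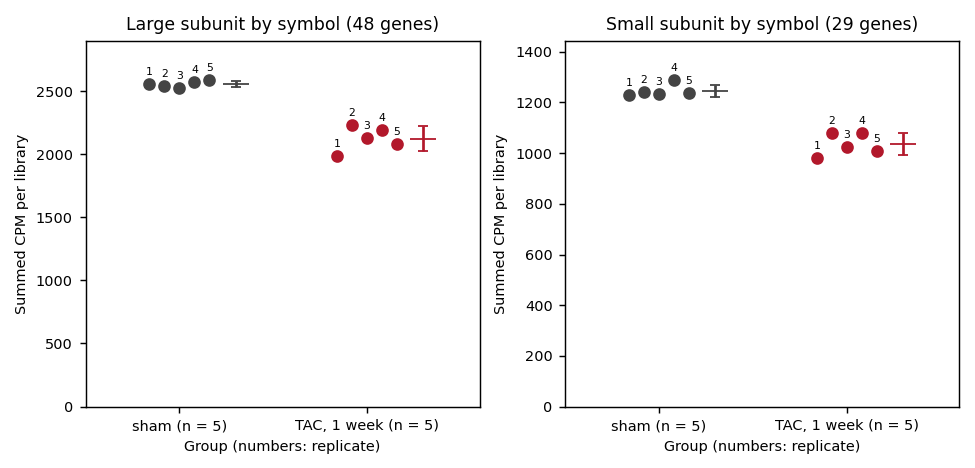
Summed CPM of the 48 large-subunit (left) and 29 small-subunit members (right) in each library, with the mean and SD of each group of 5 beside the points and axes starting at 0. All TAC points lie below all sham points in both panels, with TAC replicate 1 lowest (1986 and 983 CPM).

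The library labelled TAC replicate 1 stood lowest among the TAC libraries, with a median deviation of the members from the sham mean of -0.35 on the log2 scale, where the other 4 lay between -0.29 and -0.20. Without it, 49 members fell and none rose, beside 15.1% of all tested genes called lower and 16.7% higher, and the members' median log2 fold change was -0.24. Scaling had a larger effect. When libraries were scaled by their totals alone, the median of all genes became 0.11 and that of the members -0.17. On that scaling 32 of the 51 members remained called lower and none was called higher, beside 9.66% and 27.1% of all tested genes. The members' median minus that of all genes was -0.28 under both scalings. After a correction for GC content and transcript length, 57 members were called lower and none higher, beside 23.0% and 14.8% of all tested genes. With that correction the members' median was -0.27 and that of all genes -0.06, so that the difference shrank to -0.21. Of all calls, 52.5% were higher with TMM factors, 73.8% with library totals and 39.2% after the GC correction.

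Both subunits and both kinds of numbers took part. The counts below stand beside 17.0% of all tested genes called lower. Of the large-subunit members, 29 of 47 fell (61.7%), with a median log2 fold change of -0.28, and of the small-subunit members 22 of 29 (75.9%), with a median of -0.28. Among members with a number up to 36 in the large subunit or up to 21 in the small one, which follow bacterial numbering, 27 of 44 fell, with a median of -0.24. Among those with higher numbers, 24 of 32 fell, with a median of -0.32. The number is only a guide to ancestry: Mrpl47, Mrps24 and Mrps28 are known to have bacterial counterparts in spite of high numbers. The members with a small-subunit symbol and a higher number had 12 of 13 called lower, all but Mrps34, and the other 3 classes had between 60.7% and 63.2%. Classes are taken by symbol, which does not always give the place of the protein. Mrps36, counted among the 12, has since been regarded as a component of another complex. Whether the classes differ was not tested. Of the 38 members above the median level, 31 fell, and of the 38 at or below it, 20 did, although the medians were -0.28 and -0.29.

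**Figure D3:**
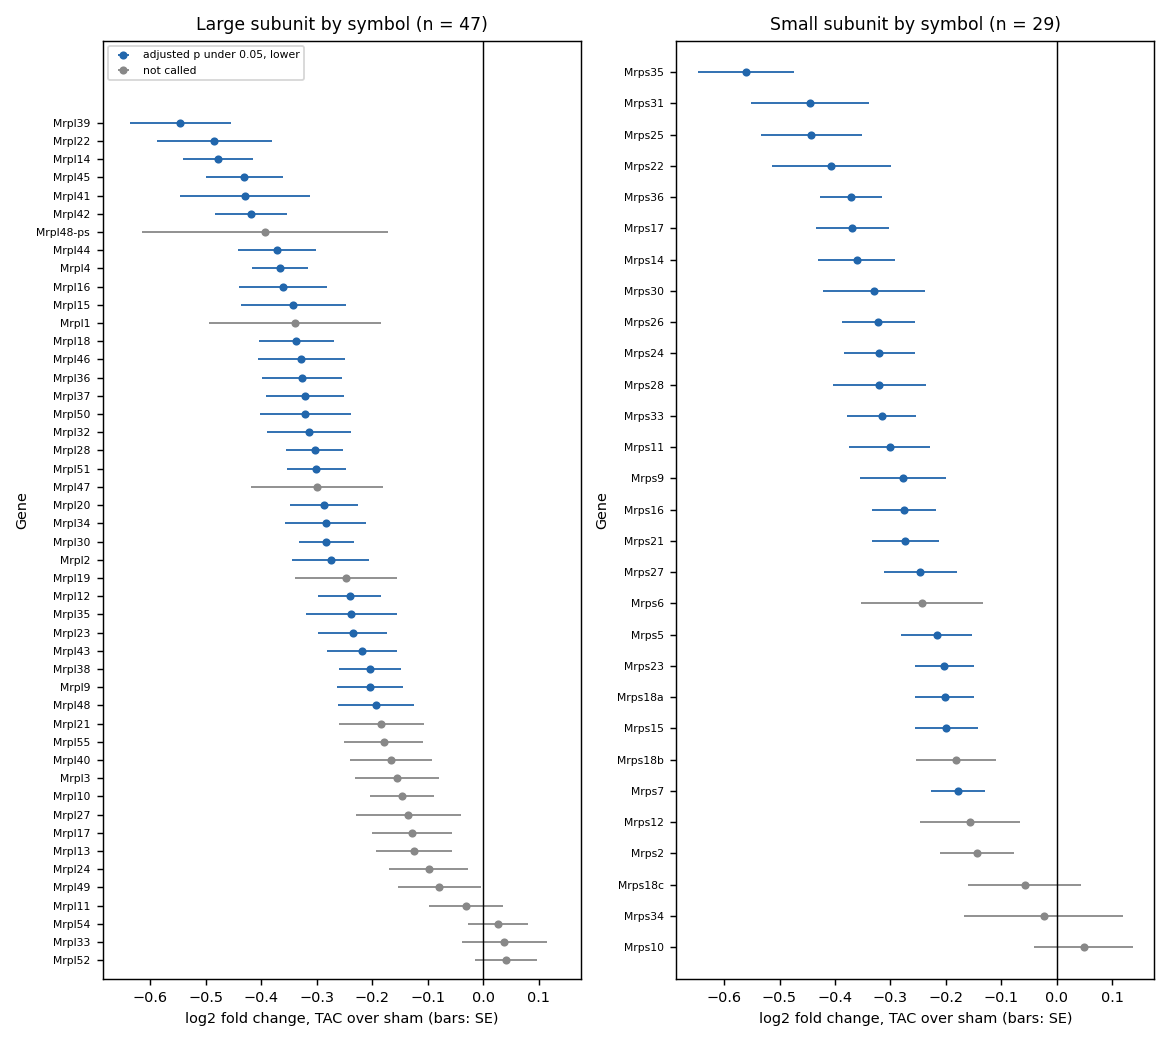
Log2 fold change of TAC over sham for each tested large-subunit (left, 47) and small-subunit member (right, 29), with bars for the standard error; blue marks members called lower and grey those not called. Most points lie left of 0, from -0.56 (Mrps35) to 0.05 (Mrps10), and none is called higher.

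Mrps35 and Mrpl39 had the lowest fold changes. Mrps35 (ENSMUSG00000040112), a small-subunit protein without a bacterial counterpart, was at 40.7, 35.1, 37.2, 41.0 and 37.8 CPM in the sham libraries and at 20.6, 28.4, 27.0, 28.5 and 25.7 CPM in the TAC libraries. Every TAC value lay below every sham value, and the mean was 32.2% lower (log2 fold change -0.56 ± 0.09, adjusted p = 0.000394). Mrpl39 (ENSMUSG00000022889), a large-subunit protein that is also particular to mitochondria, was at 45.2, 45.4, 44.4, 49.3 and 45.1 CPM in sham and at 24.7, 32.5, 29.5, 37.6 and 32.6 CPM in TAC. Its sham values were close together apart from replicate 4, and the TAC values were lower throughout (-0.55 ± 0.09, adjusted p = 0.000636).

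The large-subunit members with bacterial counterparts that fell most were Mrpl22 and Mrpl14. Mrpl22 (ENSMUSG00000020514) lines the tunnel through which the new protein leaves the ribosome. It was at 21.07, 20.12, 21.31, 26.19 and 20.03 CPM in sham and at 13.2, 15.6, 13.9, 17.3 and 17.6 CPM in TAC (-0.48 ± 0.10, adjusted p = 0.00304). The groups did not overlap, but Mrpl22 has a near copy elsewhere in the genome (Gm6997), and reads of the copies may have been divided between rows. Mrpl14 (ENSMUSG00000023939) lies at the face that meets the small subunit, where the assembly factor Malsu1 binds before the subunits join. It was at 55.0, 47.2, 54.5, 56.0 and 51.5 CPM in sham and at 36.9, 39.5, 35.5, 37.7 and 40.1 CPM in TAC, and had the smallest adjusted p of the members (-0.48 ± 0.06, adjusted p = 0.000143). Its exons overlap those of Tmem63b on the other strand, and because the libraries do not keep the strand, reads of the overlap cannot be assigned to either.

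Mrpl4 (ENSMUSG00000003299), another tunnel protein, was among the more abundant members. It was at 160, 153, 157, 162 and 154 CPM in sham and at 113, 128, 123, 129 and 118 CPM in TAC (-0.37 ± 0.05, adjusted p = 0.000184). The gap between the groups was wider than the range within either. Mrpl28 went from a mean of 122 ± 4.49 to 98.5 ± 4.99 CPM (-0.30 ± 0.05, SE) and had no overlap between groups. Mrpl36, a small zinc-binding protein, had a log2 fold change of -0.33 ± 0.07, and Mrpl32, whose precursor is cut by the m-AAA protease of the inner membrane before it joins the ribosome, of -0.31 ± 0.08. Both fell without overlap between groups.

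Mrpl12 (ENSMUSG00000039640) belongs to the stalk that recruits translation factors and is also known to bind the mitochondrial RNA polymerase. It was the member with the most CPM among those named: 222, 223, 237, 216 and 225 in sham and 175, 204, 199, 196 and 177 in TAC. All TAC values were lower, by 15.3% on the mean (-0.24 ± 0.06, adjusted p = 0.00563). With library totals it no longer passed the test.

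Among the large-subunit members with higher numbers, Mrpl45 (ENSMUSG00000018882) sits at the tunnel exit and ties the ribosome to the inner membrane, where its products are inserted. It was at 65.2, 71.6, 65.2, 63.2 and 70.0 CPM in sham and at 45.3, 55.2, 46.9, 54.2 and 47.3 CPM in TAC (-0.43 ± 0.07, adjusted p = 0.00048). The highest TAC value was below the lowest sham value. Mrpl42 (ENSMUSG00000062981) was at 156, 156, 163, 176 and 170 CPM in sham and at 108, 131, 125, 133 and 119 CPM in TAC (-0.42 ± 0.07, adjusted p = 0.000404), again without overlap; it too has a near copy, Gm6419. Mrpl41 was at 14.99, 18.90, 19.50, 18.07 and 22.54 CPM in sham and at 16.1, 14.8, 11.2, 14.1 and 13.5 CPM in TAC. It fell (-0.43 ± 0.12, adjusted p = 0.0119), but sham replicate 1 lay below TAC replicate 1.

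Of the small-subunit members with higher numbers, Mrps31 and Mrps25 followed Mrps35. Mrps25 was at 37.5, 36.8, 40.7, 44.6 and 42.5 CPM in sham and at 24.4, 28.4, 29.2, 34.9 and 31.6 CPM in TAC (-0.44 ± 0.09, adjusted p = 0.00242), with no overlap between groups. Its exons overlap those of Nr2c2 on the other strand (4590 bases), and it has a near copy, Gm42933, so its reads may be shared with other rows. Mrps31 was at 26.6, 28.8, 28.9, 25.6 and 32.3 CPM in sham and at 17.80, 22.02, 21.09, 25.89 and 17.56 CPM in TAC (-0.44 ± 0.11, adjusted p = 0.00579). TAC replicate 4 of Mrps31 lay just above the lowest sham library, while the other TAC values were below all sham values. Mrps33 fell from a mean of 42.7 ± 2.99 to 34.3 ± 1.295 CPM (SD, n = 5).

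The bacterial-type proteins of the small subunit include Mrps14, Mrps16 and Mrps17, which bind the ribosomal RNA, and Mrps21. Mrps17 was at 32.4, 35.2, 31.9, 31.6 and 33.9 CPM in sham and at 24.97, 26.91, 22.78, 27.66 and 25.36 CPM in TAC. Its groups did not overlap (-0.37 ± 0.07). The log2 fold change was -0.36 ± 0.07 for Mrps14, -0.28 ± 0.06 for Mrps16 and -0.27 ± 0.06 for Mrps21, and these 3 also fell without overlap. Mrps12, which reaches the decoding centre and is the counterpart of the bacterial protein altered in streptomycin resistance, was at 19.7 ± 2.50 CPM in TAC against 21.99 ± 1.51 CPM in sham and did not pass (-0.16 ± 0.09, adjusted p = 0.194).

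Human variants of MRPL3, MRPL44 and MRPS22 are known causes of mitochondrial disease with cardiomyopathy. Mrpl44 (ENSMUSG00000026248) was at 51.1, 49.5, 48.4, 52.8 and 46.4 CPM in sham and at 35.95, 37.51, 34.23, 42.80 and 41.16 CPM in TAC, and fell without overlap (-0.37 ± 0.07, adjusted p = 0.0014). Mrps22 (ENSMUSG00000032459) was at 12.1, 11.5, 15.5, 11.7 and 12.9 CPM in sham and at 8.90, 9.11, 9.04, 10.8 and 9.99 CPM in TAC, lower in all TAC libraries although the gap is narrow (-0.41 ± 0.11, adjusted p = 0.0098). Mrpl3 (ENSMUSG00000032563) was at 41.8 ± 2.55 CPM in sham and 37.5 ± 3.83 CPM in TAC, with overlapping groups (-0.16 ± 0.08, adjusted p = 0.132), and passed only with the GC content and length correction (adjusted p = 0.0375, and 0.0281 with the replicate block).

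The 3 genes named Mrps18 are paralogs of 1 bacterial protein, and structures of the mammalian ribosome place Mrps18a in the large subunit in spite of its symbol. Mrps18a (ENSMUSG00000023967) was at 80.1, 77.6, 82.1, 83.2 and 82.2 CPM in sham and at 67.5, 76.4, 67.6, 72.7 and 68.0 CPM in TAC, and fell (-0.20 ± 0.05, adjusted p = 0.00958), though not with library totals. Mrps18b was at 37.9 ± 2.83 and 33.5 ± 2.60 CPM and missed the threshold (-0.18 ± 0.07, adjusted p = 0.0663). Mrps18c was at 14.04 ± 1.114 and 13.5 ± 1.72 CPM (-0.06 ± 0.10, adjusted p = 0.696), and its sign was positive under library totals and under 3 other settings. Mrps36 (ENSMUSG00000061474), named as a ribosomal protein but since regarded as a component of the 2-oxoglutarate dehydrogenase complex, was at 75.9, 78.8, 79.7, 80.3 and 83.2 CPM in sham and at 58.6, 63.7, 61.1, 66.5 and 57.6 CPM in TAC (-0.37 ± 0.06, adjusted p = 0.000309). It fell without overlap, and it has 3 near copies (Gm16149, Mrps36-ps2 and Gm3544).

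The members nearest to 0 were Mrps34, Mrpl54 and Mrpl11. Mrpl54 was at 50.9, 48.8, 45.7, 52.8 and 51.4 CPM in sham and at 52.2, 50.8, 50.1, 50.4 and 50.7 CPM in TAC (0.03 ± 0.05, adjusted p = 0.741). The TAC values of Mrpl54 lay within the sham range and closer together. Mrps34 was at 14.6 ± 1.97 and 14.5 ± 3.25 CPM (-0.02 ± 0.14), and Mrpl11, at the base of the stalk, at 29.6 ± 1.92 and 28.96 ± 1.746 CPM (-0.03 ± 0.07). Exons of Mrps34 overlap those of Nme3 on the same strand (763 bases) and of Mapk8ip3 on the other (1309 bases). Reads of these stretches cannot be assigned to 1 gene, so the level of Mrps34 is uncertain. The sign of Mrps34, Mrpl54 and Mrpl11 depended on the setting, with library totals turning Mrps34 and Mrpl11 positive.

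Per kilobase of transcript the members differed widely in level. Mrpl42 had the highest sham level (247 CPM per kilobase), followed by Mrps21 (198) and Mrpl12 (171). The lowest tested members were Mrpl1, a protein of the L1 stalk through which used transfer RNA leaves (2.68 CPM per kilobase), Mrpl47 (3.83) and Mrpl19 (4.49). None of these low members passed the test, with log2 fold changes of -0.34 ± 0.15 (Mrpl1, adjusted p = 0.106), -0.30 ± 0.12 (Mrpl47, adjusted p = 0.0651) and -0.25 ± 0.09 (Mrpl19, adjusted p = 0.0501). After the GC content and length correction all 3 passed (adjusted p = 0.0469, 0.0278 and 0.0138 by edgeR). With the replicate block added, Mrpl1 did not pass (adjusted p = 0.068 by edgeR). Their transcripts are long (3431, 3364 and 5000 bases). Over the members, the Spearman correlation of fold change with transcript length was -0.09 before the correction and -0.41 after it. Lengths come from 1 annotated transcript a gene, so that a gene whose reads come from a shorter form has too low a value. Exons on the other strand overlap those of Mrpl47 (Actl6a and Ndufb5, 1068 bases) and Mrpl19 (Gcfc2, 1962 bases). Reads of these stretches may be missing from their counts. Mrpl53 alone was not tested, with 1, 0, 0, 1 and 2 counts in sham and 0 in every TAC library. Its transcript of 695 bases lies wholly within Gm42688 on the same strand.

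Copies and overlaps touch many members, and Mrpl48-ps, whose symbol marks it as a pseudogene, is itself 1 of the tested rows (-0.39 ± 0.22, not called). A near copy elsewhere in the genome (at least 95% identity over at least 250 bases) was found for 19 members, of which 14 fell. Among the members with values above, these include Mrpl22, Mrpl32, Mrpl41, Mrpl42, Mrps16, Mrps18b, Mrps21, Mrps25, Mrps33 and Mrps36. Exons overlapping another gene were found for 31 members, 30 of them tested, of which 17 fell. Of the 33 members with neither, 24 fell and none rose, with a median log2 fold change of -0.28. Called lower over all tested genes were 17.0%.

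Many members stand head to head with another gene, with starts at most 1000 bases apart on opposite strands. This held for 32 of the 74 members that could be placed (43.2%), and for 1888 of 11803 tested protein-coding genes. The 27 distinct pairs in which both genes were tested had a partner that was lower in 11 (40.7%), higher in 3 and not called in 13. Of all tested genes, 17.0% were called lower and 18.8% higher. The lower partners include Mrps11, itself a member, as the partner of Mrpl46. The median log2 fold change was -0.04 for partners and -0.25 for members. Mrps11 and Mrpl46, a small-subunit and a large-subunit gene whose starts lie 412 bases apart, both fell (-0.30 ± 0.07 and -0.33 ± 0.08). Mrpl36 shares its start region with Ndufs6, a subunit of respiratory complex I, which also fell (-0.36 ± 0.06), and Mrpl43 with Twnk, the helicase of mitochondrial DNA (-0.43 ± 0.07). Other pairs went apart: Mrpl44 fell while Wdfy1, 125 bases away, rose (0.34 ± 0.06), and Mrpl54 was at 0.03 while Apba3, 26 bases away, fell (-0.35 ± 0.06). Exons of the genes overlap in these pairs, apart from Mrpl54 and Apba3, and reads of the overlap cannot be assigned without strand.

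**Figure D4:**
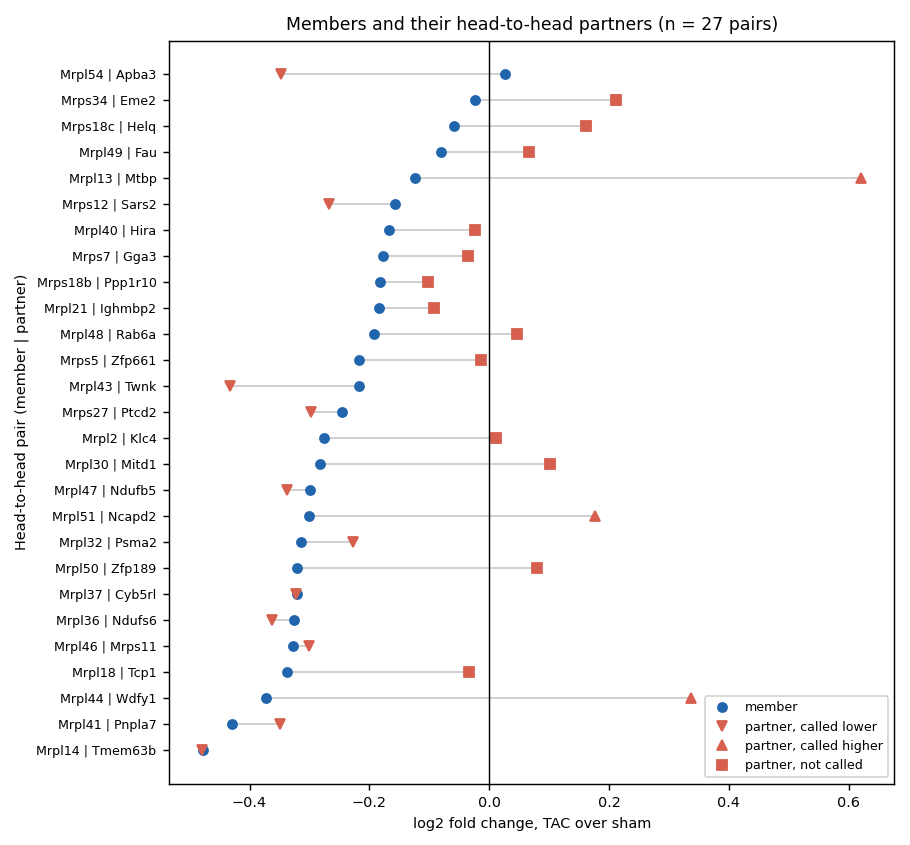
Log2 fold change of TAC over sham for 27 members (circles) and the gene that starts within 1000 bases on the opposite strand (triangles pointing down for partners called lower, up for higher, squares for not called), joined by a line. In 11 pairs the partner was called lower, and 3 partners (Mtbp, Ncapd2 and Wdfy1) were called higher, where 17.0% and 18.8% of all tested genes were.

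The other genes of mitochondrial translation had a similar range of values and no member called higher. Beside the counts below, 17.0% of all tested genes were called lower and 18.8% higher. Of 6 subunits under other symbols, 4 fell, among them Dap3, the GTP-binding protein of the small subunit (74.2 ± 4.66 to 57.6 ± 1.82 CPM, log2 fold change -0.37 ± 0.06), and Ict1, a peptidyl-tRNA hydrolase within the large subunit (-0.24 ± 0.06). The factors that assemble the ribosome or handle its RNA had 13 of 28 lower, with a median of -0.23. These include Mrm1, which methylates the large ribosomal RNA (-0.46 ± 0.06), Eral1, a chaperone of the small ribosomal RNA (-0.36 ± 0.07), and Lrpprc, which stabilises mitochondrial messages (-0.34 ± 0.08). Translation factors had 7 of 13 lower, with a median of -0.21. Among them the elongation factors Tufm (280 ± 13.1 to 237 ± 21.3 CPM, -0.24 ± 0.07) and Gfm1 (-0.31 ± 0.06) and the insertase Oxa1l, which places new proteins in the inner membrane (-0.39 ± 0.07), fell. Of the genes that charge mitochondrial transfer RNAs, 10 of 22 fell, with a median of -0.20 and the lowest value for Qrsl1, a subunit of the glutamyl-tRNA amidotransferase (-0.58 ± 0.08).

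The products of this machinery and its partners lie in 2 further lists. Of the 13 messages encoded by the mitochondrial genome, 5 fell (mt-Nd1, mt-Co1, mt-Co2, mt-Atp8 and mt-Nd4l), none rose, the median was -0.24, and none had groups without overlap. The selection of polyadenylated RNA bears on these levels, and mitochondrial ribosomal RNAs were not analysed here. The nuclear subunits of oxidative phosphorylation had 74 of 77 lower, with a median of -0.38. The proteins of the cytosolic ribosome had 6 lower and 2 higher of 82 (7.32% and 2.44%), with a median of 0.00. Shares called over all tested genes were 17.0% lower and 18.8% higher, above those of the cytosolic ribosome. The difference between the lists was not tested.

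**Figure D5:**
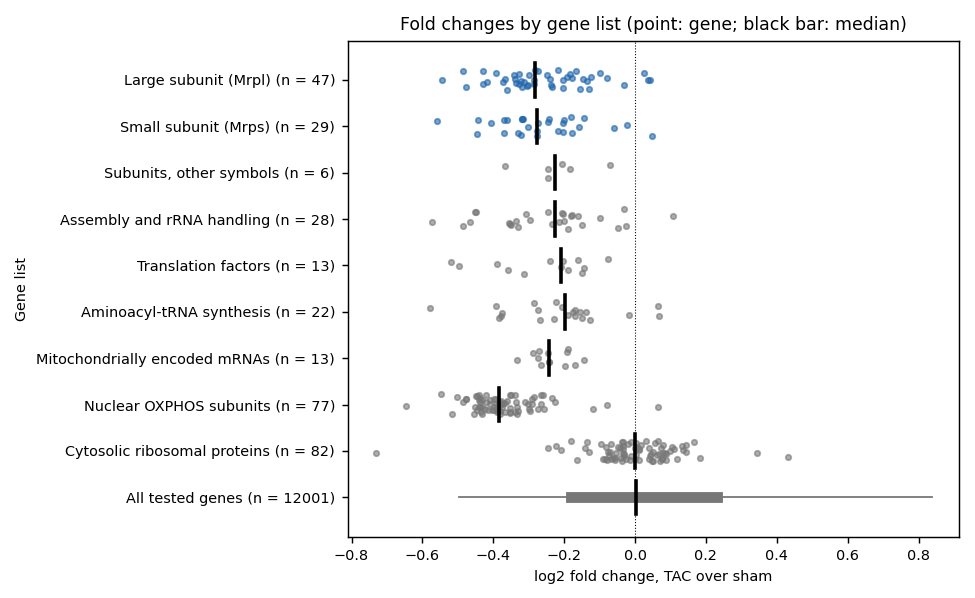
Log2 fold change of TAC over sham for each tested gene (points) of 9 lists, with the median as a black bar; the row for all 12001 tested genes shows the median, the quartiles as a thick bar and the 5th to 95th percentile as a thin line. The medians lie at -0.28 for both subunits of the mitochondrial ribosome, at -0.38 for nuclear oxidative phosphorylation (OXPHOS) subunits and at 0.00 for cytosolic ribosomal proteins.

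Some sets of transcripts that mark cell types differed between the groups, and others had few calls or none. For comparison, 17.0% of all tested genes were called lower and 18.8% higher. Of the 6 endothelial markers 2 rose, and of the 6 smooth muscle and pericyte markers 1 rose, with none lower in either set. The 3 erythroid markers and the 2 tested adipocyte markers were not called. The 12 cardiomyocyte markers, of which 8 fell, summed to between 112800 and 134400 CPM in sham and between 82020 and 110100 CPM in TAC. The 8 fibroblast markers, of which 7 rose, summed to between 902 and 1365 CPM in sham and between 2946 and 8621 CPM in TAC, with the highest value in the library labelled TAC replicate 1. Most of that sum was Col1a1, Col1a2 and Col3a1, with log2 fold changes of 2.14, 2.09 and 2.12. The other markers were at 3.11 (Postn), 0.96 (Lum), 0.34 (Tcf21, not called), 0.32 (Dcn) and 0.27 (Pdgfra), so the sum does not measure fibroblast content. The 8 macrophage markers, of which 7 rose, summed to between 139 and 166 CPM in sham and between 230 and 403 CPM in TAC, and the 6 markers of dividing cells, all of which rose, to between 3.90 and 13.6 CPM and between 45.8 and 106 CPM. The 3 atrial markers stayed at 2.31 to 4.01 CPM, and none of the cardiomyocyte markers was at 0. Their part in the lower level of the members was not tested. In bulk tissue, a change in the number of cells of a type and a change in RNA per cell cannot be told apart.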

How the data were processed

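Polyadenylated RNA of 5 sham and 5 TAC hearts was sequenced as single-end libraries without strand, per the labels' protocols. The deposited table holds raw read counts per Ensembl gene, made by the authors and not normalized. HTSeq is named for both groups in the submitters' processing notes. For sham these add mm10, Bowtie2 and TopHat2 2.0.10, for TAC both mm9 and mm10 with Bowtie and TopHat 1.3.0, and the file header names GRCm37. The notes thus differ between the groups while the header names 1 build for all columns, and whether the deposited counts were made differently is not settled; if they were, this cannot be told apart from the groups. The settings of the counter are not given in the sources used.

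Differences in counts were tested by edgeR 4.0.16 (R 4.3.3) with the quasi-likelihood F test, TMM factors, filterByExpr (minimum count 10, minimum total 15), group as the only term, Benjamini-Hochberg adjustment over 12001 genes at 0.05. A row of totals was left out. Chi-square per gene was 2.57 to 23.5 between libraries of 1 group, so none was counted as a repeat. The procedure was tested on simulated data. GENCODE M21 (GRCm38) gave 1 transcript a gene for length, GC content, exon overlap and neighbours; 94.6% of gene IDs matched, and 1 member did not. Near copies were found with BLAST 2.17.0. Promoters are RefSeq's; the NRF1 and YY1 motifs were shortened by 1 base after a first search, which raised their shares in members and in all genes.

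Named by rule were the 8 members with the largest fall, the 3 with the smallest adjusted p in each of 4 classes of subunit and number, the 3 nearest to 0, the 3 highest and 3 lowest per kilobase, a fixed panel of 13, and up to 4 genes of each other list. Other members named to make up a small count, and the head-to-head pairs, were chosen after their values were seen. The members and lists were chosen with earlier results of these data known. Alternatives were other scaling, DESeq2 1.42.0, limma-voom (limma 3.58.1), no filter, robust dispersion, a replicate block, a GC content and length correction, and leaving out each library.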

Additional observations from a re-analysis of the deposited data

Results flagged for a closer look

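Single libraries stood apart from the other 4 of their group in 7 of 76 groups of values looked at, where chance alone flags about 1 group in 20. In each, the gap to the nearest library was over 0.71 of the whole range of the group (Dixon's criterion for 5 samples). Sham replicate 4 was high for Mrpl22 (26.2 CPM, others 20.03 to 21.31), Mrpl39 (49.3 CPM, others 44.4 to 45.4), Mrps16 (70.9 CPM, others 62.2 to 64.4) and the small-subunit sum (1289 CPM, others 1230 to 1242), and low for Mrpl19 (19.3 CPM, others 22.8 to 23.8). Sham replicate 5 was high for Mrpl32 (23.4 CPM, others 19.6 to 20.5). TAC replicate 1 was low for Mrpl1 (4.74 CPM, others 7.35 to 8.29).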

How the results depend on the processing

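Library totals in place of TMM factors moved the counts most: 32 members were then called lower (19 large-subunit, 13 small-subunit), their median log2 fold change was -0.174, and of all genes 1159 were lower and 3257 higher (73.8% of calls higher, in place of 52.5%). With a GC content and length correction 57 members were lower and 39.2% of all calls were higher. The members' median minus that of all genes was then -0.209, in place of -0.279. Under every other alternative run, the number of members called lower stayed between 49 and 54 (55 with the 6 subunit genes under other symbols added), and no alternative called a member higher. Leaving out 1 library at a time gave 49 to 54 members and a median of -0.303 to -0.244, and 49 of the 51 kept their call in each such fit, all but Mrpl35 and Mrpl48. The 32 members called with library totals were called under every alternative. Of the 23 named members that passed, 21 kept their call throughout, and the exceptions were Mrpl12 and Mrps18a with library totals. Among the 10 named members that did not pass, 16 results did under an alternative: 7 for Mrpl19 (adjusted p = 0.0138 to 0.0499), 4 for Mrpl47, 2 for Mrpl3, and 1 each for Mrpl1, Mrps12 and Mrps18b, of which 7 came with the GC and length correction. Signs turned for Mrpl11 (0.074) with library totals, for Mrps18c with library totals (0.045) and with the GC and length correction (0.018, and 0.013 with the replicate block), and for Mrps34 with library totals (0.077). Leaving out 1 library gave -0.005 to 0.043 for Mrpl54 (below 0 without sham replicate 3), -0.109 to 0.014 for Mrps18c (above 0 without TAC replicate 1) and -0.153 to 0.045 for Mrps34. Same-numbered libraries showed little shared deviation (correlations of -0.0916 to 0.2224, highest with the own number only for replicate 4), and the main fit did not pair them. Weak correlations cannot exclude that libraries of the same number share a batch. With the replicate block, 52 members were lower. The cause of these shifts was not tested. The largest standard errors were those of Mrpl48-ps (0.22), Mrpl1 (0.15) and Mrps34 (0.14), so differences of the size of the members' median were least detectable there.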

Other observations

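The row of Lars2, the mitochondrial leucyl-tRNA synthetase, held 11780 ± 1139 CPM (SD, n = 5) in sham hearts against 12320 ± 1648 CPM after TAC. This difference missed the threshold (log2 fold change 0.06 ± 0.10). The Lars2 row made up most of the summed level of the genes that charge mitochondrial transfer RNAs (10530 to 13490 CPM in sham). It was singled out after its value was seen.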
